A study of Mus musculus with 17 samples.

Results

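Cxcl1, Cxcl2, Cxcl3 and Cxcl5 are secreted chemokines that bind the receptor CXCR2. They were taken by symbol from a targeted panel of 988 genes measured in colon tissue of azoxymethane-treated mice, and all 4 were present in each of the 17 libraries' tables. Azoxymethane causes colon tumors in mice and rats, and every mouse, in every group, received it by intraperitoneal injection. The Kit-B6 tumor group held 6 samples from C57BL/6 mice with normal Kit, and the Kit-W/sh tumor group held 6 samples from mice of W-SASH background. Both tumor groups were taken at postnatal week 32, after 6 injections in 6 weeks and a further 18 weeks. The Kit-B6 preneoplastic group held 3 samples and the Kit-W/sh preneoplastic group 2, taken at postnatal week 14 after 3 injections in 3 weeks and a further 3 weeks. No group without azoxymethane was analysed here. The W-sash allele is an inversion upstream of Kit, the receptor for stem cell factor, and adult carriers have very few mast cells. Kit also acts in blood-forming progenitors, melanocytes and the pacemaker cells of the gut, so the allele is not a loss of mast cells alone. The RNA came from whole tissue, in which fewer cells of a type and less RNA per cell cannot be told apart.

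CXCR2 is carried mainly by neutrophils, and its ligands draw these cells out of the blood and into inflamed tissue. The ligands share a glutamate-leucine-arginine motif ahead of their first cysteines, and they are made by epithelial cells, fibroblasts, endothelial cells and macrophages after signals such as interleukin-1, interleukin-17 and tumor necrosis factor. These signals act largely through NF-kB, a family of transcription factors, and the axis is known for recruiting neutrophils and other myeloid cells to the inflamed and tumor-bearing colon.

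The 4 genes lie in 1 cluster on mouse chromosome 5. In the order of the RefSeq GRCm38.p6 annotation the cluster reads Cxcl5, Ppbp, Pf4, Cxcl3, Cxcl15, Cxcl1 and Cxcl2. RefSeq promoter sequences were held for 3 of the 4, all on the plus strand. They are shown because these 3 genes rose in tumors of both genotypes (below), and each is given as the 150 bases that end just before the annotated start. The windows are chr5:90891095-90891244 for Cxcl1, chr5:90903749-90903898 for Cxcl2 and chr5:90785951-90786100 for Cxcl3. Capitals mark the runs of 8 or more bases that all 3 windows share, GGGAATTTCCC, which holds a form of the NF-kB binding motif, and ATAAAAGG, a TATA-like box.
Cxcl1: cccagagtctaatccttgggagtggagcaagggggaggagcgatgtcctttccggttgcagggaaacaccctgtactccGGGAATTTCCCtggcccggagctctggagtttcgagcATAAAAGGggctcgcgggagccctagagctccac
Cxcl2: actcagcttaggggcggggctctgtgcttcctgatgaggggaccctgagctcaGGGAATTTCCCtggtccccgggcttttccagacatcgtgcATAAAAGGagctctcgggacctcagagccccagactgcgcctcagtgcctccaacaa
Cxcl3: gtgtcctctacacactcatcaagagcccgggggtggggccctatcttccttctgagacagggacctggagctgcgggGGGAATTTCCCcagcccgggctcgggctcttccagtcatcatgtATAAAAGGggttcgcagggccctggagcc

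The GGGAATTTCCC run began 71 bases ahead of the start in Cxcl1, 97 bases in Cxcl2 and 73 bases in Cxcl3, each time followed by ATAAAAGG, which began 34, 57 and 29 bases ahead. Both were found from these sequences. Over the same window and both strands, GGGAATTTCCC was held by 10 of 32851 RefSeq promoters (0.0304%), these 3 among them, and ATAAAAGG by 344 (1.05%). The runs do not overlap. A match describes the letters only and does not show that a factor bound there.

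The assay was a multiplex PCR panel that reads a short amplicon of each gene, and each value was a whole-number count. Library totals ran from 616009 to 1399902 counts. Levels are given as CPM, counts set relative to library size, after TMM scaling, which is edgeR's correction for library composition. A count of 3 corresponded to 2.14 to 5.50 CPM, depending on the library. Amplicons differ in efficiency, so levels are compared within a gene and not between genes. Kit ran from 93.7 to 473.4 CPM in Kit-B6 tumors and from 48.9 to 257.6 in Kit-W/sh tumors. Cpa3, a mast cell protease, ran from 11.3 to 255.9 CPM in Kit-B6 tumors and from 0 to 9.81 in 5 of the 6 Kit-W/sh tumors, whereas Kit-W/sh tumor 2, so labelled, reached 459.6. Its Cpa3 level goes against the label, and the results on the 4 members that rest on it are given with and without it. Nothing in the labels says that each sample was a separate mouse, so the p-values describe only the spread between these samples. The deposited names of Kit-B6 tumors 4 and 5, the lowest and the highest of their group below, share a code, so both may come from 1 mouse, and the main results are also given with their counts summed as 1 sample.

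The chemokines were scarce before tumors formed and abundant in tumors. In preneoplastic colon the 4 together took 0.00384% to 0.0115% of all counts in Kit-B6 mice and 0.0383% to 0.0684% in Kit-W/sh mice. In tumors they took 0.0746% to 0.861% in Kit-B6 mice and 0.537% to 2.18% in Kit-W/sh mice. Every member followed the same order of group means, from Kit-B6 preneoplastic through Kit-W/sh preneoplastic and Kit-B6 tumor to Kit-W/sh tumor, although the tumor groups overlapped in every member and Cxcl3 was near the floor in both preneoplastic groups. Every tumor held all 4 transcripts, and 2 preneoplastic libraries had no count of Cxcl3, 1 of them none of Cxcl2 either.

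Cxcl1, also known as KC, is induced within hours of an inflammatory signal. It stood at 51.3, 56.2 and 18.6 CPM in the 3 Kit-B6 preneoplastic samples (42.1 ± 20.5, SD, n = 3) and at 148.3 and 330.3 CPM in the 2 Kit-W/sh samples (239.3 ± 128.7, SD, n = 2). In Kit-B6 tumors the lowest value was 34.99, the median 442.5 and the highest 686.3 CPM (428.2 ± 227.9, SD, n = 6). In Kit-W/sh tumors the lowest was 264.5, the median 1769 and the highest 3044 CPM (1772 ± 1184, SD, n = 6). Kit-B6 tumor 4 lay within the range of preneoplastic colon, and 5 of 6 Kit-W/sh tumors lay above every Kit-B6 tumor.

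Cxcl2, also known as MIP-2, is released largely by macrophages and other myeloid cells. In Kit-B6 preneoplastic colon the counts were 0, 2 and 1, at or under the 3-count floor in every library. The Kit-W/sh preneoplastic samples held 11 and 14 counts, which is 19.9 and 19.3 CPM. Kit-B6 tumors ran from 39.1 through a median of 370.8 to 901.6 CPM (425.5 ± 282.4, SD, n = 6). Kit-W/sh tumors ran from 583.0 through 1747 to 5396 CPM (2258 ± 1675, SD, n = 6). The tumor groups overlapped because Kit-B6 tumor 5, at 901.6 CPM, was above the library labelled Kit-W/sh tumor 2, and the preneoplastic groups did not overlap.

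Cxcl3 is the closest relative of Cxcl2. Its counts were 0, 3 and 1 in Kit-B6 and 0 and 6 in Kit-W/sh preneoplastic colon, so no difference between these groups was detectable at this depth. Kit-B6 tumors ran from 11.3 through 198.6 to 459.0 CPM (217.3 ± 150.2, SD, n = 6), and Kit-W/sh tumors from 142.7 through 750.0 to 1152 CPM (683.8 ± 338.8, SD, n = 6). In 5 of 6 Kit-W/sh tumors Cxcl3 exceeded every Kit-B6 tumor, and the library labelled Kit-W/sh tumor 2 fell below 5 of the 6 Kit-B6 tumors. The coding sequences of Cxcl2 and Cxcl3 are 89.8% identical, and their transcripts share a run of 110 bases in the GENCODE M21 annotation. The sources used here do not give the amplicon positions, so the division of reads between Cxcl2 and Cxcl3 is uncertain. The other pairs were less alike, at 75.6% for Cxcl1 with Cxcl2, 72.6% for Cxcl1 with Cxcl3, and 48.9% to 50.0% for Cxcl5 with the other members.

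Cxcl5, known in mice as LIX, is made by epithelial and stromal cells. It stood at 77.0, 63.5 and 20.1 CPM in Kit-B6 preneoplastic colon (53.6 ± 29.7, SD, n = 3) and at 262.3 and 410.1 CPM in Kit-W/sh preneoplastic colon (336.2 ± 104.6, SD, n = 2). Kit-B6 tumors ran from 704.0 through 5073 to 6544 CPM (4648 ± 2158, SD, n = 6). Kit-W/sh tumors ran from 4078 through 9616 to 11560 CPM (8510 ± 3107, SD, n = 6). The tumor groups overlapped more widely for Cxcl5 than for the other members, since Kit-W/sh tumors 2 and 6 lay within the Kit-B6 range, and the preneoplastic groups did not overlap.

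**Figure D1:**
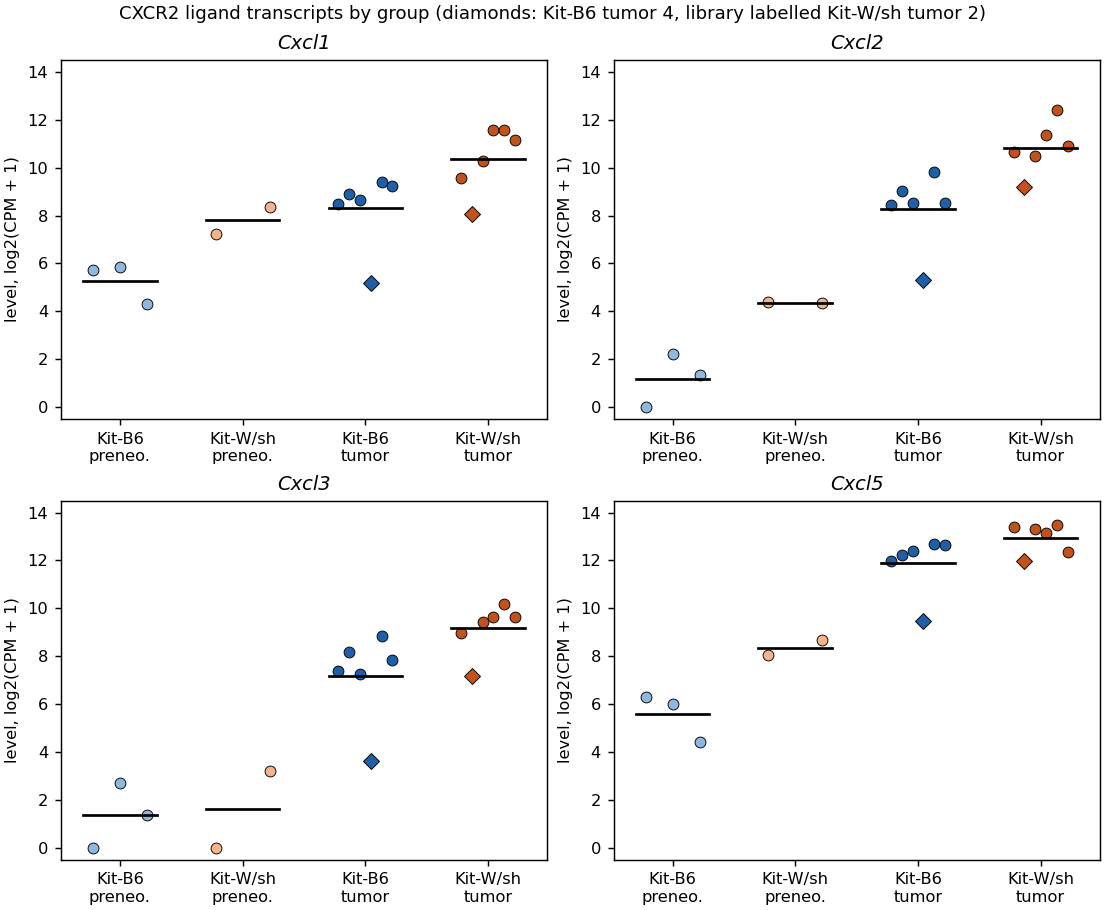
Level of each chemokine in every library, as log2(CPM + 1) on the vertical axis, with the 4 groups along the horizontal axis; points are samples, diamonds are Kit-B6 tumor 4 and the library labelled Kit-W/sh tumor 2, and lines are group means. Group means are higher in tumors than in preneoplastic colon of the same genotype, and the lowest point of each tumor group is Kit-B6 tumor 4 or the library labelled Kit-W/sh tumor 2 in all 4 panels.

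The spread within a tumor group was wide and was shared by the members. Among Kit-B6 tumors the highest value was 19.6 times the lowest for Cxcl1, 23.1 times for Cxcl2, 40.5 times for Cxcl3 and 9.30 times for Cxcl5. Among Kit-W/sh tumors these ratios were 11.5, 9.25, 8.07 and 2.83. Kit-B6 tumor 4 was the lowest of its group in all 4 members, the library labelled Kit-W/sh tumor 2 was the lowest of its group in all 4, and tumor 5 was the highest in all 4 in both genotypes.

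The first comparison asked whether chemokine transcripts differed between Kit-W/sh and Kit-B6 tumors. Mean levels in Kit-W/sh tumors were higher for all 4 members, but none passed the threshold of an adjusted p of 0.05 in edgeR's quasi-likelihood test. In edgeR the log2 difference (Kit-W/sh over Kit-B6, with its standard error) was 2.03 ± 0.63 for Cxcl1 (adjusted p = 0.198), with 5 of 6 Kit-W/sh tumors above the Kit-B6 median. For Cxcl2 edgeR gave 2.38 ± 0.61 (adjusted p = 0.154), with 6 of 6 above that median. For Cxcl3 edgeR gave 1.63 ± 0.61 (adjusted p = 0.258), and for Cxcl5 0.86 ± 0.42 (adjusted p = 0.402), each with 5 of 6 above. These are fold differences of 4.07, 5.21, 3.09 and 1.81.

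Across the panel edgeR called 0 of 799 genes between the tumor groups (0%), so the 0 of 4 members stood at the background. At an unadjusted p under 0.05 edgeR counted 3 of the 4 members (Cxcl1, Cxcl2 and Cxcl3), against 109 genes (13.6%) of all tested. DESeq2, another count test, called 2 of the 4, Cxcl1 (adjusted p = 0.0295) and Cxcl2 (adjusted p = 0.00677), against 24 genes (3%). The median log2 difference was 1.83 over the 4 members and -0.01 over all genes tested. In two-sided exact permutation tests on mean log2(CPM + 1), 4 of 16 such tests run on the members, the unadjusted p was 0.0303 for Cxcl1, 0.00433 for Cxcl2, 0.0281 for Cxcl3 and 0.0476 for Cxcl5. The adjustment planned over these 16 tests was not applied, so no member is read as passing 0.05 in them. The smallest p that 6 against 6 samples allow in this exact test is 0.00216. With 1 library left out in turn the exact permutation p rose to at most 0.0693 for Cxcl1, 0.00866 for Cxcl2, 0.0649 for Cxcl3 and 0.113 for Cxcl5. It was 0.00216, 0.00433, 0.00433 and 0.0238 without the library labelled Kit-W/sh tumor 2.

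These values depended on the lowest library of each group. Without the library labelled Kit-W/sh tumor 2, edgeR gave log2 differences of 2.25, 2.58, 1.84 and 1.00 for Cxcl1, Cxcl2, Cxcl3 and Cxcl5, with adjusted p of 0.052, 0.0517, 0.113 and 0.216. Without Kit-B6 tumor 4 they were 1.77, 2.12, 1.36 and 0.61, with adjusted p of 0.197, 0.173, 0.233 and 0.374 in edgeR. With both left out, edgeR called 15 genes, among them Cxcl1 (2.01 ± 0.36, adjusted p = 0.0294), Cxcl2 (2.34 ± 0.41, adjusted p = 0.0294) and Cxcl3 (1.59 ± 0.32, adjusted p = 0.0351). Cxcl5 was at 0.77 ± 0.22 (edgeR adjusted p = 0.088). That pair was chosen after the values were seen, and removing the lowest library of each group narrows the spread by construction. With Kit-B6 tumors 4 and 5 summed as 1 sample edgeR gave 1.95, 2.38, 1.62 and 0.78, with adjusted p of 0.113, 0.0502, 0.104 and 0.197, so no member passed.

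The same question was asked of preneoplastic colon, with 3 Kit-B6 and 2 Kit-W/sh samples. Cxcl1, Cxcl2 and Cxcl5 were higher in both Kit-W/sh samples than in any Kit-B6 sample, but none passed the threshold in edgeR. The edgeR log2 difference was 2.49 ± 0.56 for Cxcl1, 3.33 ± 0.78 for Cxcl2 and 2.63 ± 0.55 for Cxcl5, and the adjusted p was 0.254 for each. Cxcl3 held too few counts to enter the test. The fitted difference of Cxcl2 rests on 25 counts in Kit-W/sh against 3 in Kit-B6. After scaling that is a ratio of 11.3, with a counting interval of 3.46 to 58.7 at 95%. For Cxcl3, 6 counts against 4 gave a ratio of 2.04 with an interval of 0.484 to 9.84. These intervals cover counting error only.

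In this comparison edgeR called 1 of 777 genes (0.129%) and 0 of the 3 members tested. At an unadjusted p under 0.05 edgeR counted all 3 of them, against 83 genes (10.7%). DESeq2 called 2 of the 3, Cxcl1 (adjusted p = 0.00388) and Cxcl5 (adjusted p = 0.000816), against 20 genes (2.57%), and gave Cxcl2 an adjusted p of 0.219. Of all genes tested, 127 (16.3%) were higher in both Kit-W/sh samples than in any Kit-B6 sample, as were the 3 members. The median log2 difference was 2.63 over these 3 and -0.01 over all genes tested. An exact permutation test of 3 against 2 samples cannot give a p below 0.1, and Cxcl1, Cxcl2 and Cxcl5 each reached that limit.

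Tumors were then compared with preneoplastic colon within each genotype. Stage differed also in age, number of injections and tissue, and these cannot be told apart. All 4 members rose in both genotypes, and the rise was smallest for Cxcl1. In Kit-B6, edgeR called 357 of 869 genes (41.1%), of which 193 (22.2% of those tested) were higher in tumors, and all 4 members were among the latter. In Kit-B6 mice the edgeR log2 rise was 3.36 ± 0.89 for Cxcl1 (adjusted p = 0.00766) and 6.45 ± 0.74 for Cxcl5 (adjusted p = 1.51e-05). For Cxcl2 edgeR gave 7.85 ± 1.24 (adjusted p = 0.000184), a count ratio of 263 (counting interval 89.8 to 1270), and for Cxcl3 6.48 ± 1.25 (adjusted p = 0.000901), a count ratio of 99.8 (38.9 to 367). Cxcl2, Cxcl3 and Cxcl5 were higher in 6 of 6 tumors than in any preneoplastic sample, as were 16.2% of all genes tested. Cxcl1 was higher in 5 of 6, the exception being tumor 4. With Kit-B6 tumors 4 and 5 summed, edgeR called all 4 members higher, at 3.46, 7.89, 6.54 and 6.56 in the order of their numbers.

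In Kit-W/sh mice edgeR called 345 of 869 genes (39.7%), 182 of them higher in tumors (20.9%), and again all 4 members rose. The edgeR log2 rise was 2.88 ± 0.99 for Cxcl1 (adjusted p = 0.0304), 6.84 ± 1.20 for Cxcl2 (adjusted p = 0.000603), 7.19 ± 1.41 for Cxcl3 (adjusted p = 0.00126) and 4.66 ± 0.80 for Cxcl5 (adjusted p = 0.000544). As count ratios, Cxcl2 was 114 times higher (counting interval 76.9 to 176) and Cxcl3 143 times (65.7 to 390). Cxcl2, Cxcl3 and Cxcl5 again did not overlap between the stages, as was so for 29.6% of all genes in this direction. Cxcl1 overlapped, since the library labelled Kit-W/sh tumor 2, at 264.5 CPM, was below 1 preneoplastic sample at 330.3 CPM. Without that library edgeR gave rises of 3.11 ± 0.88, 7.04 ± 1.12, 7.41 ± 1.31 and 4.8 ± 0.78 for Cxcl1, Cxcl2, Cxcl3 and Cxcl5 (adjusted p of 0.0119, 0.000324, 0.00065 and 0.000379).

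In exact permutation tests of levels between stages, Cxcl1 in Kit-W/sh mice had an unadjusted p of 0.0714, and 0.0476 without the library labelled Kit-W/sh tumor 2. The other members there reached the smallest p allowed, 0.0357. In Kit-B6 mice the unadjusted exact permutation p was 0.0357 for Cxcl1 and 0.0119, the smallest allowed, for the other members. The edgeR call for Cxcl1 in Kit-W/sh mice rested on both preneoplastic samples. Without the first it was 2.43 (edgeR adjusted p = 0.216) and without the second 3.58 (edgeR adjusted p = 0.0949), while the count of called genes fell from 345 to 132 and 159. With the replicate number as a block Cxcl1 was at 2.32 (edgeR adjusted p = 0.139). Without the second preneoplastic sample the fitted rise of Cxcl3 went to 12.4, since the remaining sample held 0 counts of it. The median log2 change was 6.47 over the 4 members and 0.00 over all genes in Kit-B6, and 5.75 and 0.08 in Kit-W/sh. The 3 reference genes measured were Rpl13a, Tfrc and B2m, and under TMM scaling edgeR called B2m itself lower in tumors of both genotypes. A scale set by these genes thus takes in the fall of B2m. Scaling to them moved the median of all genes by 0.75 in Kit-B6 and 0.45 in Kit-W/sh. It raised the share of calls that were higher in tumors from 54.1% to 90.6% and from 52.8% to 78.9%. With unscaled library totals that share was 73.0% and 70.1%, and when 9 genes listed last in the tables set the scale, a choice made after the data were seen, 62.6% and 70.0%. All 4 members were called higher in both genotypes under each of these scalings.

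**Figure D2:**
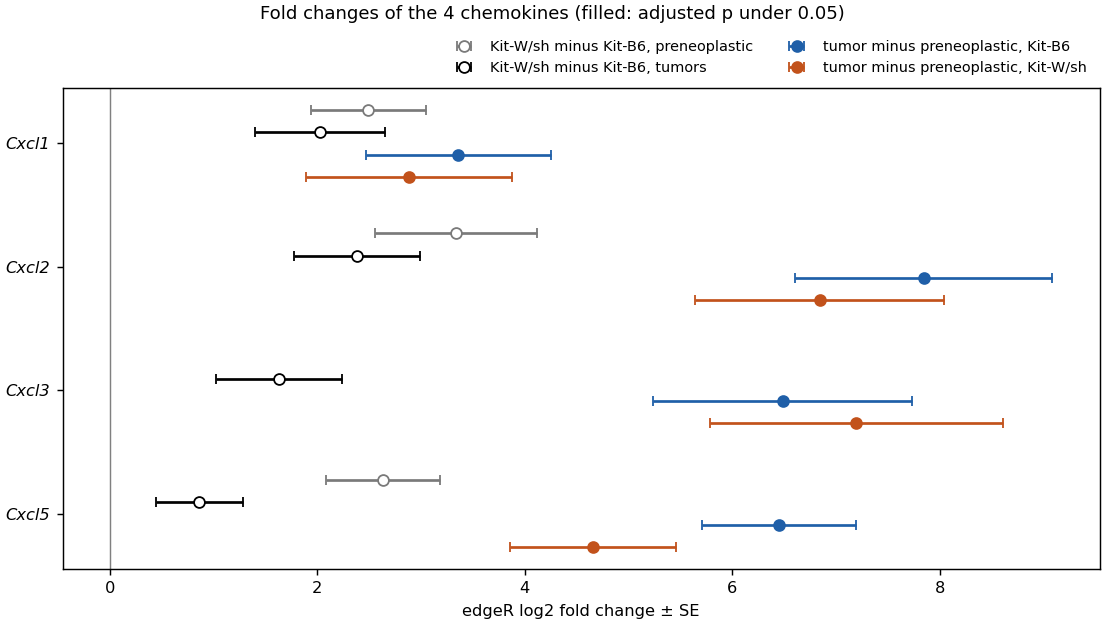
Log2 fold change of each chemokine in the 4 comparisons, from edgeR, with bars of 1 standard error. Filled points passed an adjusted p of 0.05, which all 4 members did between tumors and preneoplastic colon in both genotypes and none did between genotypes; Cxcl3 was not tested in preneoplastic colon.

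Whether the genotype difference itself changed with stage was tested as an interaction over all 17 libraries. No member passed: edgeR gave -0.47 ± 1.14 for Cxcl1 (adjusted p = 0.959), -1.005 ± 1.79 for Cxcl2 (adjusted p = 0.940), 0.71 ± 2.28 for Cxcl3 (adjusted p = 0.959) and -1.79 ± 0.81 for Cxcl5 (adjusted p = 0.660). A negative value means a smaller log2 difference between genotypes in tumors than in preneoplastic colon. edgeR called 0 of 869 genes (0%), 63 (7.25%) had an unadjusted p under 0.05, among them Cxcl5 of the 4 members (unadjusted p = 0.0425), and DESeq2 called 1 gene (0.115%). Leaving out the library labelled Kit-W/sh tumor 2 put the members at -0.25, -0.80, 0.92 and -1.65 (edgeR adjusted p of 0.959, 0.920, 0.922 and 0.649). With standard errors of 0.81 to 2.28, changes of several fold in the genotype difference were not detectable. The 2 stages within a genotype and the 2 genotypes within a stage share samples, so the comparisons above are not independent of each other.

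The balance among the 4 chemokines was examined as the ratio of 2 members within a library, which needs no scaling between libraries, and 24 such tests were run over the pairs and comparisons. A constant amplicon efficiency drops out of the difference between groups. The count of Cxcl2 was 8.48%, 11.1%, 6.83%, 5.56%, 13.8% and 5.79% of the count of Cxcl5 in Kit-B6 tumors 1 to 6. The 6 Kit-W/sh tumors, in the same order of number, gave 14.6%, 14.3%, 14.0%, 29.4%, 46.7% and 35.9%. The groups did not overlap, though the nearest values, 13.8% and 14.0%, were close. The mean log2 ratio was -3.62 ± 0.52 (SD, n = 6) in Kit-B6 and -2.13 ± 0.77 (SD, n = 6) in Kit-W/sh tumors, a difference of 1.49 or 2.82-fold. The two-sided exact permutation p was 0.00216, the smallest this design allows, and 0.0518 after Benjamini-Hochberg adjustment over 24 tests, so it did not pass a threshold of 0.05. The library labelled Kit-W/sh tumor 2, lowest in every level, had a ratio like those of Kit-W/sh tumors 1 and 3, and without it the difference was 1.63 (exact permutation, adjusted p = 0.0571).

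The other ratios differed less between the tumor groups. Relative to Cxcl5, Cxcl1 was higher by 1.00 on the log2 scale in Kit-W/sh tumors (exact permutation p = 0.0974, adjusted 0.171) and Cxcl3 by 0.94 (exact permutation p = 0.0628, adjusted 0.137). Cxcl1 was 26.3% to 43.1% of Cxcl5 in Kit-W/sh tumors 4 to 6 and 6.49% to 12.2% in tumors 1 to 3, against 4.97% to 10.5% in Kit-B6 tumors. Among the first 3 members the differences were 0.50 for Cxcl2 over Cxcl1 (exact permutation p = 0.13, adjusted 0.208), -0.05 for Cxcl3 over Cxcl1 (exact permutation p = 0.833, adjusted 0.869) and -0.55 for Cxcl3 over Cxcl2 (exact permutation p = 0.0519, adjusted 0.125). These 5 differences, without the library labelled Kit-W/sh tumor 2, were 1.27, 1.16, 0.36, -0.11 and -0.48, with adjusted exact permutation p of 0.104, 0.104, 0.387, 0.739 and 0.171.

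The ratios were then set side by side between stages, where none passed a threshold of 0.05 after adjustment over the 24 tests. In Kit-B6 preneoplastic colon Cxcl1 stood at 66.7%, 88.6% and 92.3% of the count of Cxcl5, and in Kit-B6 tumors at no more than 10.5%. The mean log2 ratio was lower in tumors by 3.30, or 9.84-fold, without overlap (exact permutation p = 0.0119, the smallest allowed, adjusted 0.0571). In Kit-W/sh preneoplastic colon Cxcl1 stood at 56.6% and 80.5% of Cxcl5, and the ratio was lower by 2.02 in tumors, also without overlap (exact permutation p = 0.0714, adjusted 0.143). In Kit-W/sh mice the log2 ratio of Cxcl2 to Cxcl1 was higher in tumors by 3.91 and that of Cxcl2 to Cxcl5 by 1.89 (each exact permutation p = 0.0357, the smallest allowed, adjusted 0.0952). These 3 Kit-W/sh differences, without the library labelled Kit-W/sh tumor 2, were -1.75, 3.77 and 2.02 (adjusted exact permutation p of 0.171, 0.104 and 0.104). Between the genotypes in preneoplastic colon the ratio of Cxcl1 to Cxcl5 differed by -0.28 (exact permutation p = 0.4, adjusted 0.48). Ratios with a library at or under 3 counts are not reported.

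**Figure D3:**
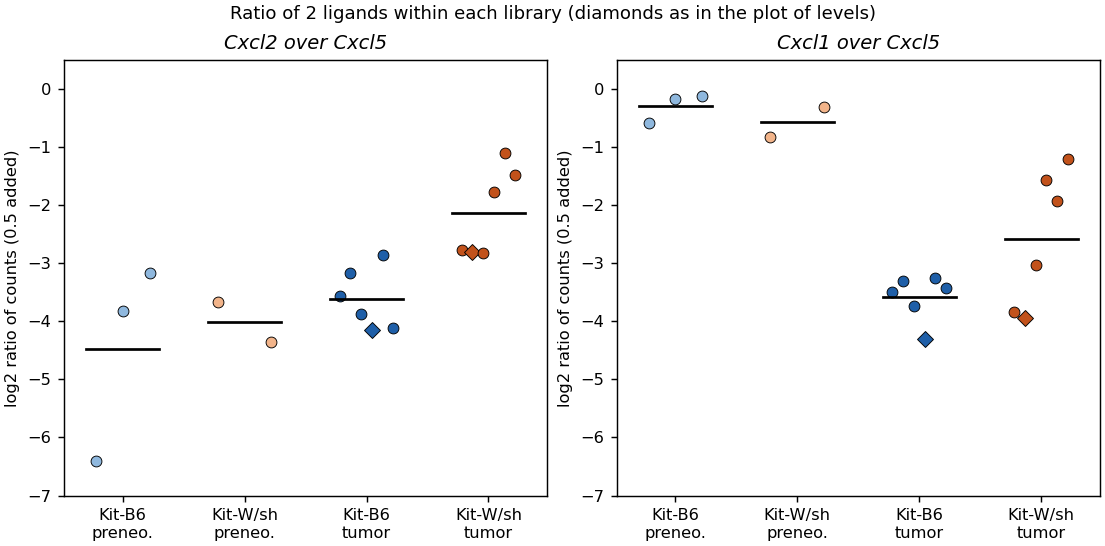
Log2 ratio of 2 chemokines within each library, on the vertical axis, by group, with 0.5 added to each count; points are samples (diamonds for Kit-B6 tumor 4 and the library labelled Kit-W/sh tumor 2) and lines are group means. The Cxcl2 counts of Kit-B6 preneoplastic colon, 0 to 2, are under the floor. Cxcl2 over Cxcl5 is higher in every Kit-W/sh tumor than in any Kit-B6 tumor, and Cxcl1 over Cxcl5 is lower in every tumor than in any preneoplastic sample.

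Relations between members were computed across the 6 samples of each tumor group on log2(CPM + 1), 12 in all. By Pearson's r all 6 pairs passed in Kit-B6 tumors, and in Kit-W/sh tumors the 3 pairs among Cxcl1, Cxcl2 and Cxcl3 did. In Kit-B6 tumors Pearson's r ran from 0.955 to 0.994 over the 6 pairs, with exact permutation p adjusted over the 12 relations of 0.0194 to 0.0425. By Spearman's rho, tested and adjusted likewise, Cxcl1 with Cxcl3 did not pass (rho 0.886, adjusted exact permutation p = 0.0571). Nor did Cxcl2 with Cxcl5 (rho 0.829, adjusted exact permutation p = 0.0874) or Cxcl3 with Cxcl5 (rho 0.714, adjusted exact permutation p = 0.181). Without tumors 4 and 5, the lowest and the highest, r ran from -0.06 to 0.824, so the relation rests on those samples. In Kit-W/sh tumors r was 0.899 for Cxcl1 with Cxcl2 (rho 0.943), 0.951 for Cxcl1 with Cxcl3 (rho 1.0) and 0.910 for Cxcl2 with Cxcl3 (rho 0.943), with adjusted exact permutation p of 0.0194, 0.0167 and 0.0194. With Cxcl5 the same members gave r of 0.522, 0.692 and 0.695 (adjusted exact permutation p of 0.282, 0.151 and 0.125). Without the 2 samples farthest from the median, the library labelled Kit-W/sh tumor 2 among them each time, the first 3 values were 0.796, 0.713 and 0.582, and the values with Cxcl5 were -0.02, -0.29 and -0.64. The relations among Cxcl1, Cxcl2 and Cxcl3 thus kept their sign in Kit-W/sh tumors, and those with Cxcl5 did not.

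The genes whose pattern was most like that of the 4 chemokines were found over the 12 tumors after subtracting each group mean, by the mean of r with the 4 members. They were Fpr1, a receptor for bacterial formyl peptides on neutrophils (mean r 0.942), Inhba, a subunit of activin (0.913), Csf2, the cytokine GM-CSF (0.897), Il1b, interleukin-1 beta (0.872), and Il13ra2, a decoy receptor for interleukin-13 (0.868). Among the members themselves these values ran from 0.823 to 0.967. They are a description over 12 samples that share libraries and depth, and they rest on Kit-B6 tumor 4. Without the library labelled Kit-W/sh tumor 2 the mean r was 0.932 for Fpr1, 0.901 for Inhba, 0.893 for Csf2, 0.845 for Il1b and 0.837 for Il13ra2. Without both it was 0.558, 0.481, 0.585, 0.493 and 0.422 over 10 tumors, and among the members it then ran from -0.02 to 0.850.

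Cxcr2, the receptor, followed the same groups. It held 0, 1 and 0 counts in Kit-B6 and 0 and 2 in Kit-W/sh preneoplastic colon, at or under the 3-count floor in every library. Kit-B6 tumors ran from 29.9 to 107.2 CPM (85.4 on average) and Kit-W/sh tumors from 121.1 to 402.5 CPM (243.4 on average). The tumor groups did not overlap, as was so in this direction for 5 of 799 genes (0.626%), whereas each of the 4 chemokines overlapped. The edgeR log2 difference between the tumor groups was 1.49 ± 0.34 (adjusted p = 0.154), which did not pass, and 1.63 ± 0.33 (adjusted p = 0.0517) without the library labelled Kit-W/sh tumor 2. DESeq2 called it (adjusted p = 0.00677). Cxcr2 rose with stage by count ratios of 148 in Kit-B6 (edgeR adjusted p = 2.69e-05) and 152 in Kit-W/sh (edgeR adjusted p = 0.000136), on 1 and 2 preneoplastic counts, and both calls held without the library labelled Kit-W/sh tumor 2 (edgeR adjusted p of 2.36e-05 and 9.46e-05). Cxcr1, the other receptor, had 0 counts in all 5 preneoplastic samples and at most 17 counts in a tumor, and did not pass in edgeR in any comparison (adjusted p with stage of 0.0611 in Kit-B6 and 0.0600 in Kit-W/sh). It did pass with stage in Kit-W/sh in DESeq2 (adjusted p = 0.0458) and without the library labelled Kit-W/sh tumor 2 in edgeR (adjusted p = 0.0474), and in both genotypes with unscaled totals and with reference-gene scaling.

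**Figure D4:**
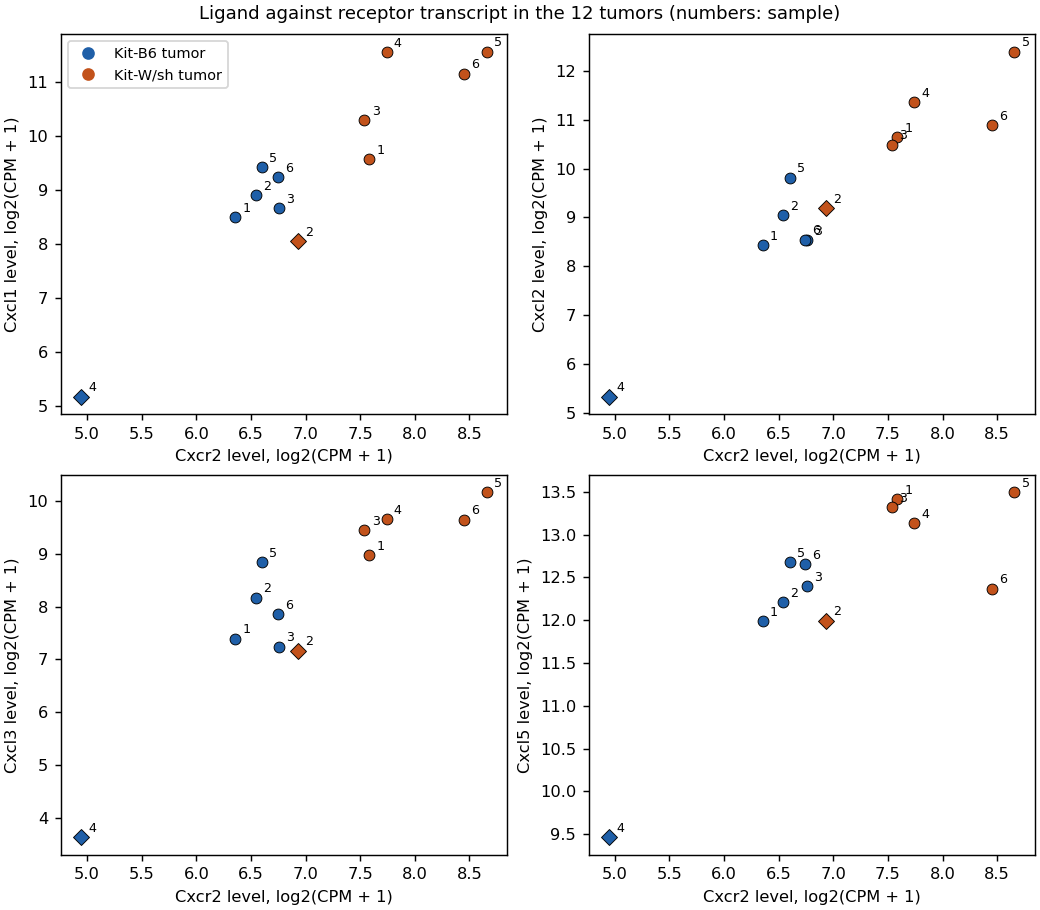
Level of Cxcr2 on the horizontal axis against the level of each chemokine on the vertical axis, both as log2(CPM + 1), 1 numbered point for each of the 12 tumors, with diamonds for Kit-B6 tumor 4 and the library labelled Kit-W/sh tumor 2. Kit-B6 tumor 4 lies alone at the lower left of each panel, and all 6 Kit-W/sh tumors lie to the right of every Kit-B6 tumor; the plot carries no test.

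The panel held 2 further ligands of the same structural class. Ppbp, known as a platelet chemokine, rose in tumors of both genotypes, by 3.79 ± 0.99 in Kit-B6 (edgeR adjusted p = 0.00716) and 5.30 ± 1.29 in Kit-W/sh (edgeR adjusted p = 0.00509). Between the tumor groups it differed by 0.87 ± 0.56 (edgeR adjusted p = 0.505). Cxcl15 rose in Kit-B6 (3.16 ± 1.22, edgeR adjusted p = 0.0466) and was at 2.30 ± 1.30 in Kit-W/sh (edgeR adjusted p = 0.167). Cxcl15 held only 3 summed preneoplastic counts in Kit-B6 and 4 in Kit-W/sh, and Ppbp 18 and 9. In Kit-B6 tumors Cxcl15 ran from 2.06 through a median of 7.17 to 62.7 CPM. The call of Cxcl15 in Kit-B6 was lost without the library labelled Kit-W/sh tumor 2 (edgeR adjusted p = 0.0505), and that of Ppbp held in both genotypes.

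Cytokines known to induce these chemokines were the next group, with 7 measured. In edgeR 4 of 7 rose with stage in Kit-B6 and 5 of 7 in Kit-W/sh, against 22.2% and 20.9% of all genes, and none fell. Summed preneoplastic counts in Kit-B6 and Kit-W/sh were 4 and 19 for Il17a, 6 and 10 for Il6, and 6 and 3 for Csf2. Genes with so few counts before tumors formed could hardly be called lower in tumors. Il1b rose by 3.36 ± 0.77 in Kit-B6 (edgeR adjusted p = 0.00287) and by 4.47 ± 0.96 in Kit-W/sh (edgeR adjusted p = 0.00238), and Il1a, which encodes interleukin-1 alpha, by 3.12 ± 0.78 and 5.80 ± 1.06. Between the tumor groups 0 of 6 tested passed in edgeR. All 6 had an unadjusted p under 0.05, against 13.6% of all genes, and a positive log2 difference (Kit-W/sh over Kit-B6). Like the members and the other lists, these cytokines were chosen with earlier results of these data known. Such shares are therefore no independent support. DESeq2 called 3 of the 6, Il1a, Il1b and Il17a (adjusted p of 0.0168, 0.0196 and 0.0196). Il1b was at 1.91 ± 0.56 (edgeR adjusted p = 0.154) and Il17a at 2.12 ± 0.61 (edgeR adjusted p = 0.154). Without the library labelled Kit-W/sh tumor 2 they were at 2.11 and 2.27 (edgeR adjusted p of 0.0517 and 0.0812). In preneoplastic colon 0 of 3 tested passed in edgeR, with Il22, which acts on epithelial cells, at 3.66 ± 0.83 (edgeR adjusted p = 0.254).

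Receptors and adaptors for these signals, and NF-kB subunits and inhibitors, were called in both directions. Of 5 receptors and adaptors, 2 rose with stage in Kit-B6 (Cd14 and Il1r1), 1 fell (Il17ra), and 2 rose in Kit-W/sh (Tnfrsf1b and Cd14) in edgeR. Of 7 NF-kB genes, Rela and Nfkb1 rose and Chuk, a kinase of the inhibitor complex, fell in Kit-B6, and Rela rose and Chuk fell in Kit-W/sh. The falls of Il17ra and Chuk did not pass with unscaled library totals or with reference genes, where no gene of either list was called lower. Of all genes 22.2% and 20.9% were higher and 18.9% and 18.8% lower in Kit-B6 and Kit-W/sh. With lists of only 5 and 7 genes, nothing is read from these counts. None of these 12 genes passed between genotypes in edgeR, whereas DESeq2 called Tnfrsf1b between the tumor groups and Nfkbia in preneoplastic colon. Nfkbia, an inhibitor that NF-kB itself induces, was at 0.71 ± 0.24 between the tumor groups (edgeR adjusted p = 0.229) and 0.79 ± 0.17 in preneoplastic colon (edgeR adjusted p = 0.254).

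Chemokines of other receptors moved in both directions. Of 7 other CXC chemokines, 6 were tested with stage in each genotype. Pf4, a platelet chemokine that lies inside the Cxcl cluster, rose by 1.67 ± 0.33 in Kit-B6 (edgeR adjusted p = 0.000987) and 1.47 ± 0.38 in Kit-W/sh (edgeR adjusted p = 0.00678). Cxcl12, the ligand of CXCR4, fell by 1.21 and 1.18 on the log2 scale (edgeR adjusted p of 0.00652 and 0.0158), but was not called in either genotype with reference-gene scaling, nor in Kit-W/sh with the 9 genes listed last. Of 11 chemokines of the CC and other classes tested, 3 rose and 2 fell in Kit-B6, and 4 rose and 3 fell in Kit-W/sh. Of all genes 22.2% and 20.9% were higher and 18.9% and 18.8% lower, and with 11 genes nothing is read from these counts. With reference-gene scaling 5 rose and 0 fell in Kit-B6, and 4 rose and 2 fell in Kit-W/sh. Between the tumor groups 0 of 15 genes tested in these lists passed in edgeR, and DESeq2 called Ccl4.

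Levels of cell markers are given beside those of the chemokines, and their part in the results was not tested. Of 11 genes typical of neutrophils, 10 were tested between stages, and 8 rose in Kit-B6 and 10 in Kit-W/sh in edgeR (9 without the library labelled Kit-W/sh tumor 2), against 22.2% and 20.9% of all genes. In Kit-B6 and Kit-W/sh preneoplastic colon Fpr1 held 2 and 3 counts and Cxcr2 1 and 2, so these could hardly be called lower in tumors. Levels of the whole list follow. Their summed level in preneoplastic colon ran from 348.4 to 867.2 CPM in Kit-B6 and from 265.9 to 293.2 in Kit-W/sh mice, and in tumors from 472.4 to 2001 in Kit-B6 and from 1732 to 2714 in Kit-W/sh mice. Kit-B6 tumor 4 was the lowest of its group in this sum and tumor 5 the highest of both groups, as for the chemokines. The lowest Kit-W/sh tumor in the sum was tumor 3, whereas it was tumor 2 for the chemokines. The median log2 difference between the tumor groups was 0.69 over the neutrophil genes tested. In preneoplastic colon the sum was lower in both Kit-W/sh samples than in any Kit-B6 sample, opposite to Cxcl1, Cxcl2 and Cxcl5, and 0 of the 5 neutrophil genes tested had a positive log2 difference. Csf3r, Fpr1, Fpr2, Cxcr2, Mpo and Hdc were not tested there. Cybb, Selplg and Itgb2 were the tested genes with the highest Kit-B6 means. Group means in Kit-B6 and Kit-W/sh were 221.6 and 70.66 CPM for Cybb, 137.8 and 73.77 for Selplg, and 95.35 and 52.3 for Itgb2. Among the untested they were 7.54 and 7.53 for Csf3r, 12.9 and 8.18 for Fpr2, and 10.3 and 11.9 for Hdc. For Fpr1 they were 1.22 and 2.28 and for Cxcr2 0.605 and 1.38, both near the floor. The lower sum thus does not describe every gene of the list. The monocyte and macrophage sum was also lower in both Kit-W/sh samples, at 437.7 and 618 CPM against 660.1 to 847.9, with 0 of 7 tested genes positive. Mpo was at 0 in all 5 preneoplastic samples. The sum of 8 monocyte and macrophage markers ran from 585.6 to 2697 CPM in Kit-B6 and from 1207 to 1757 in Kit-W/sh tumors, with Marco at 0 in both, and the median log2 difference was -0.02 over the 6 tested. The sum of 8 mast cell markers ran from 410.4 to 1425 CPM in Kit-B6 tumors and from 158.8 to 1406 in Kit-W/sh tumors, the highest of the latter being the library labelled Kit-W/sh tumor 2, and the median was -0.48 over the 6 tested.

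Markers of other cells also differed between stages, and their part in the rise of the chemokines was not tested. Car4, a carbonic anhydrase of mature colonocytes, fell by 3.71 on the log2 scale in Kit-B6 (edgeR adjusted p = 0.0176) and by 5.30 in Kit-W/sh (edgeR adjusted p = 0.0045). The summed level of 2 epithelial markers, Car4 and Epcam, ran from 50710 to 123000 CPM in Kit-B6 and from 88900 to 89670 in Kit-W/sh preneoplastic colon. The tumors lay at 25390 to 49440 and 24480 to 30380. Epcam alone averaged 26990 CPM in Kit-B6 and 28310 in Kit-W/sh preneoplastic colon. In tumors it averaged 27440 and 26870 CPM, so the sum fell through Car4. Of 3 stromal markers, Col3a1, a collagen chain, rose by 1.46 and 1.30 (edgeR adjusted p of 0.00534 and 0.0250) and Pdgfrb, a receptor of pericytes and fibroblasts, by 1.24 and 1.38 (edgeR adjusted p of 0.0242 and 0.0340). Fap, a protease of activated fibroblasts, fell by 1.65 and 2.32 (edgeR adjusted p of 0.00393 and 0.000811), though not with reference-gene scaling in Kit-B6. In Kit-B6 mice 4 of 6 B cell and 3 of 10 T cell markers fell, and 1 of each with unscaled totals, with reference-gene scaling and with the 9 genes listed last. In Kit-W/sh mice 0 and 1 fell, and without the library labelled Kit-W/sh tumor 2 it was 0 and 3. The B cell sum reached 2752 CPM in Kit-B6 preneoplastic colon and at most 303.9 in Kit-W/sh, and the T cell sum 1511 and 781.4. In tumors the B cell sum ran from 32.93 to 754.1 CPM in Kit-B6 and from 18.12 to 111.8 in Kit-W/sh, and the T cell sum from 105.1 to 587.9 and from 206 to 774.3.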

How the data were processed

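Expression was measured in 17 colon samples of 4 groups (from the sample titles) by a QIAseq targeted panel of mouse immuno-oncology genes. The authors deposited a table of whole-number counts for each sample; per the submitters' processing notes the build was mm9 and DESeq2 was used, and whether reads or molecular tags were counted is not given in the sources used here. Of 993 entries, 988 were genes and 5 were control amplicons, which were at 0 and left out. The lowest chi-square per degree of freedom between libraries of a group was 11.7, so none was counted as a copy of another.

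Counts were tested in R 4.3.3 with edgeR 4.0.16 (TMM scaling, filterByExpr with minimum count 10 and minimum total 15, robust quasi-likelihood fit, two-sided), with Benjamini-Hochberg adjustment over all genes tested and a threshold of 0.05. Genotype comparisons used the libraries of their stage, and stage and interaction contrasts used all 17. Levels were also tested by exact permutation of mean log2(CPM + 1), without adjustment over the 16 tests, and ratios with 0.5 added to each count. DESeq2 1.42.0, other scalings, no filter on low counts, the replicate block and leaving out libraries were alternatives. The edgeR script was tested on simulated counts. Sequences came from RefSeq GRCm38.p6, of which 3 of 4 members matched. Named genes were the members, Kit, Cpa3, up to 4 genes with the smallest p per list, and the 5 of most similar pattern; list genes named outside that rule were named as the whole of a small count. The members and lists were chosen with earlier results of these data known. Counting intervals and floors cover counting error only.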

Additional observations from a re-analysis of the deposited data

How the results depend on the processing

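The direction of all 4 members held between tumors of the genotypes and between stages under every alternative run, with edgeR log2 differences between the tumor groups of 1.77 to 2.25 for Cxcl1, 1.90 to 2.75 for Cxcl2, 1.36 to 2.00 for Cxcl3 and 0.61 to 1.00 for Cxcl5. Between the tumor groups DESeq2 called 24 genes and passed Cxcl1 (2.01) and Cxcl2 (2.36). Leaving out Kit-B6 tumor 4 and the library labelled Kit-W/sh tumor 2, a choice made after the data were seen, gave 15 genes and passed Cxcl1 (2.01), Cxcl2 (2.34) and Cxcl3 (1.59). In preneoplastic colon the count of 1 called gene became 0 with unscaled totals, with all 17 libraries in 1 fit, with the replicate block and with the 9 last-listed genes, became 20 with DESeq2, which passed Cxcl1 (2.49) and Cxcl5 (2.63), and ranged from 0 to 16 with 1 library left out, the 16 coming without Kit-B6 preneoplastic 1. Between stages in Kit-W/sh mice Cxcl1 lost its call with the replicate block (2.32) and without either preneoplastic sample (2.43 to 3.58 over all libraries left out in turn), and the count of called genes ranged from 132 to 367. For the interaction DESeq2 called 1 gene, leaving out 1 library called 0 to 2, and the sign turned for Cxcl1 (-0.93 to 0.22) and Cxcl3 (-0.66 to 5.92). The level of Cxcl3 between genotypes in preneoplastic colon ranged from -1.35 to 1.86 and the ratio of Cxcl3 to Cxcl1 in tumors from -0.17 to 0.09 with 1 library left out, both crossing 0. In each of these the cause was not tested.

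Replicate numbers were not used to pair samples in the main fits, and whether they pair them was not settled. The correlation of deviations between same-numbered tumors of the genotypes ran from -0.195 to 0.39, and between the 2 numbered preneoplastic pairs was -0.099 and -0.137. Kit-B6 tumors 2, 5 and 6 were most like the Kit-W/sh tumor of the same number, and tumors 1, 3 and 4 were not. Between same-numbered tumors and preneoplastic samples the correlation ran from -0.011 to 0.395 in Kit-B6. In Kit-W/sh it was 0.059 and -0.112. The replicate block changed no other call of a member. Cxcl3 and Cxcr2 lay near the 3-count floor in both preneoplastic groups and Cxcl2 in Kit-B6, so depth limits comparisons of these genes before tumors formed. Of 20 sets of 6 samples checked for a value far from the others, 0 exceeded the critical value of 0.625. The levels were checked as CPM and only the ratios as log2. Levels on the log2 scale, used for the permutation tests and correlations, were not checked. The check therefore does not show that Kit-B6 tumor 4, the lowest of its group, lies within the spread there.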
